A study of Mus musculus with 6 samples.

Results

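Genes of 6 carrier families that move inorganic ions across membranes were followed in mouse distal colon: the bicarbonate transporters (Slc4), the sodium-calcium exchangers (Slc8 and Slc24), the sodium-proton exchangers (Slc9), the cation-chloride cotransporters (Slc12) and the multifunctional anion exchangers (Slc26). Members were the protein-coding rows of the deposited count table whose symbol starts with one of those family names followed by a and a number, which gave 50 of 54532 genes. Of these, 47 are carriers. The other 3 carry the names of carriers they bind or were named after: Slc9a3r1 and Slc9a3r2 encode the scaffold proteins NHERF1 and NHERF2, and Slc4a1ap encodes kanadaptin. Poly-A RNA was sequenced from 6 libraries, 3 labelled WT and 3 labelled Itgbl1 -/-. Both groups received DSS (dextran sulfate sodium, 36 to 50 kDa), a polymer that injures the colonic epithelium, at 3% in the drinking water for 7 days, so untreated colon is not part of the comparison. The labels give neither strain nor age, nor how the Itgbl1 allele was made, and they identify the replicates by number only. P-values therefore measure the spread between these libraries, which may be technical in part.

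The colonic surface absorbs salt through paired exchangers in the apical membrane: a sodium-proton exchanger (Slc9a3 or Slc9a2) takes up sodium, and Slc26a3 takes up chloride in return for bicarbonate. Intracellular carbonic anhydrase supplies the proton and the bicarbonate, and pumps and potassium-chloride cotransporters empty the cell on the basolateral side. Crypt cells run the reverse direction, loading chloride through the basolateral cotransporter Slc12a2 and bicarbonate through Slc4a4 before it leaves by channels such as Cftr. Loss of SLC26A3 causes congenital chloride diarrhoea, and lowered apical exchangers are a known feature of the inflamed colon.

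Libraries held 13326970 to 18321389 counts. Itgbl1 itself was at 5 to 19 reads in WT and 4 to 12 reads in KO libraries (ratio 0.878, 95% interval 0.25 to 3.08 by edgeR, adjusted p = 0.9), so the counts show no loss under the knockout label, and WT and KO below mean the libraries so labelled. Where in the gene those reads lie was not analysed here. KO 3 stood apart with 12.8% mitochondrial counts, against 3.53 to 4.88% in the other libraries. General epithelial transcripts were also uneven. The summed level of 10 pan-epithelial markers was 12170 to 19460 CPM (read counts per library size, scaled with TMM factors) in WT and 994, 5837 and 73.5 CPM in KO 1, KO 2 and KO 3. All 10 of these markers had a negative log2 ratio, and Esrp1 was at 0 in KO 3. Epithelial cell types did not move alike in KO 2. The summed level of 10 colonocyte markers was 17750 to 22140 CPM in WT and 1140, 9142 and 27.0 CPM in KO 1 to KO 3. For 7 goblet cell markers it was 13670 to 14890 CPM in WT and 497, 13950 and 29.1 CPM in KO 1 to KO 3, with KO 2 inside the WT range.

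No member passed the adjusted threshold of 0.05 in edgeR's quasi-likelihood test, as was the case for all 16861 genes tested (0%). Of the 50 members, 38 had enough reads to be tested. At an unadjusted p under 0.05, 9 members were lower in KO, 23.7% of those tested, against 12.3% of all genes. In the other direction 1 member was higher, 2.63%, against 11.8% of all genes. In 11 members every KO library lay below every WT library (28.9%, against 17.3% of all genes), and in 2 every KO library lay above (5.26%, against 15%). A negative log2 ratio was found in 24 of 38 members (63.2%, against 46.9% of all genes), and a level at least 4-fold lower in 5 (13.2%, against 5.69%). The median log2 ratio was -0.22 over the members and 0.06 over all genes tested.

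Other tests did call members. DESeq2 called 6 members lower (Slc26a3, Slc26a2, Slc4a4, Slc12a8, Slc4a7 and Slc12a7), against 6.45% of all genes, and 1 higher (Slc12a4), against 4.02%. The same 7, with Slc9a3r1 as an eighth and lower, were called by limma-voom with quality weights, against 6.05% of all genes lower and 2.23% higher. Plain limma-voom called 0 members. Without KO 2 the edgeR test called 6 members lower, against 7.75% of all genes, and 2 higher, against 2.64%. Those were Slc26a3, Slc26a2, Slc4a4, Slc12a8, Slc12a7 and Slc9a3r1, lower, and Slc12a4 and Slc24a2, higher. Without KO 3 it called 0.

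**Figure D1:**
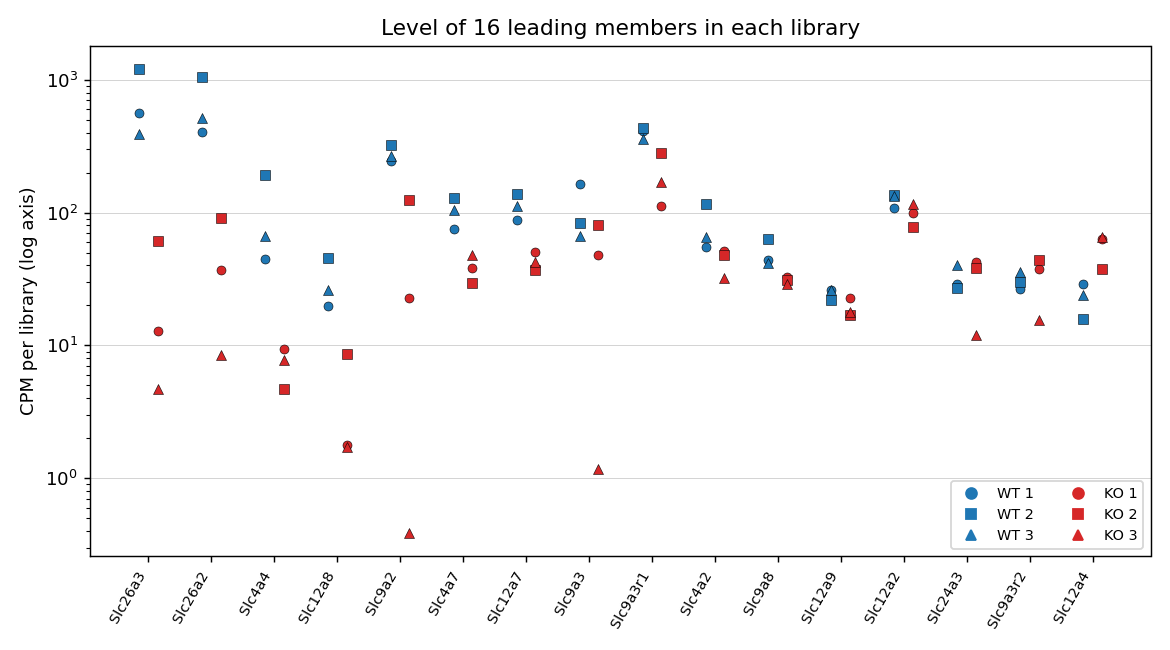
CPM in each library (log axis) for 16 members with a mean of at least 20 CPM or an unadjusted p under 0.05 at a mean of at least 1 CPM, ordered by log2 ratio. Blue symbols are WT and red symbols KO libraries. Slc26a3 runs from 387 to 1200 CPM in WT and from 4.74 to 60.9 CPM in KO, and Slc12a4, at the right end, is higher in all 3 KO libraries.

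Slc26a3 and Slc26a2, the Slc26 genes with the highest counts here, were far lower in the KO libraries. Their gene models lie on GRCm38 chromosome 12, 31390871 to 31473917, and chromosome 18, 61192919 to 61211612. Slc26a3, the apical chloride-bicarbonate exchanger of surface colonocytes (DRA), had 561, 1200 and 387 CPM across the WT replicates in numerical order, against 12.9, 60.9 and 4.74 CPM across the KO replicates. The groups did not overlap: the highest KO library, KO 2, lay below the lowest WT library, WT 3. The fitted level was 27.3-fold lower in KO (log2 ratio -4.77 ± 1.06 SE, 95% interval of the ratio 0.00651 to 0.205, edgeR adjusted p = 0.0983). The ratio moved with the KO libraries, from -6.39 on the log2 scale without KO 2 to -4.27 without KO 3, and was -4.18 without WT 2.

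Slc26a2, a sulfate carrier needed to sulfate mucins and matrix, was at 407, 1053 and 513 CPM in WT and at 37.0, 91.2 and 8.47 CPM in KO. WT 2 was the highest library and KO 3 the lowest in both Slc26 genes, and the groups were again separate. The log2 ratio was -3.85 ± 0.89 (SE; edgeR adjusted p = 0.0991), with -4.91 without KO 2 and -3.36 without KO 3. In WT the per-length level of Slc26a3 was 1.47 to 2.68 times that of Slc26a2 (CPM per kilobase of gene length). In KO the ratio was 0.675, 1.297 and 1.09, so Slc26a3 had the lower level of the pair in KO 1.

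The remaining Slc26 genes showed no such difference. Slc26a6, another apical anion exchanger that handles chloride, bicarbonate and oxalate, was at 6.83, 4.999 and 4.84 CPM in WT and 4.99, 8.58 and 6.76 CPM in KO. Its groups overlapped, with a log2 ratio of 0.29 ± 0.37 (SE) and a 95% interval of the ratio from 0.663 to 2.24. The per-length level of Slc26a3 exceeded that of Slc26a6 by 69.7, 204 and 68.0 times in the WT replicates. Among the KO replicates the multiple was 2.19, 6.03 and 0.596. Slc26a11 had a log2 ratio of -0.029 ± 0.357 (SE), Slc26a4, known as pendrin, one of -0.33 ± 0.54 (SE), Slc26a10 one of -0.17 ± 0.61 (SE) and Slc26a7 one of 1.14 ± 0.76 (SE). Slc26a4, Slc26a10 and Slc26a7 were at 0.29 to 3.73 CPM in single libraries, and a 2-fold difference lay within the 95% interval of each. Slc26a10 overlaps B4galnt1 on the opposite strand over 938 bases, with 209 reads in all against 3895 for B4galnt1. Reads in that overlap cannot be told apart without a stated strand setting.

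The stretches just before the RefSeq start of 3 members are shown because these genes differ in their place in the comparison: Slc26a3 with the lowest log2 ratio, Slc4a7 with a smaller but tighter one (described with the bicarbonate carriers below), and Slc12a4, the only member higher in KO at an unadjusted p under 0.05. Each runs 5′ to 3′ on the gene's own strand over 250 bases up to the base before the start (RefSeq, GRCm38.p6). The windows are chr12:31437969-31438218 on the plus strand, chr14:14718534-14718783 on the plus strand and chr8:105966116-105966365 on the minus strand. The Slc26a3 and Slc4a7 starts lie inside the gene models of the count table, which begin further upstream. Capitals mark matches on either strand to CAAAGNNCA (a core of HNF4 and other nuclear receptor sites), TTTATG (a core of CDX sites), TATAAA (the TATA box) and GGGCGG (the GC box).
Slc26a3: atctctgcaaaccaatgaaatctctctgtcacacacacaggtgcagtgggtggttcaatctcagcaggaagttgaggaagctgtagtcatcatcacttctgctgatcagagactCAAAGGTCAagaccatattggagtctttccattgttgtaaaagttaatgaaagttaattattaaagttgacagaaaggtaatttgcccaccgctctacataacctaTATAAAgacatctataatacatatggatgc
Slc4a7: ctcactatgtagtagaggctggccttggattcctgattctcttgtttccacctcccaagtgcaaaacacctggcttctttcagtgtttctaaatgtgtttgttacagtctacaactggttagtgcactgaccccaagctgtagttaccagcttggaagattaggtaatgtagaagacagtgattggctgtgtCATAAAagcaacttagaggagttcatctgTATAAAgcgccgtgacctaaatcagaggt
Slc12a4: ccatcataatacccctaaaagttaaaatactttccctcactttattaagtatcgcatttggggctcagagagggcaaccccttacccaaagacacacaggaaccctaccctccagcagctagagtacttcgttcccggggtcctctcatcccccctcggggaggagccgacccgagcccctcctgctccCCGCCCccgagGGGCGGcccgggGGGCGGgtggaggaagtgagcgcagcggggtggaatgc

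The Slc26a3 window holds CAAAGGTCA from 136 to 128 bases and TATAAA from 30 to 25 bases before the start. Its GC content is 38.8%, and it has 1 CG dinucleotide. The Slc4a7 window holds CATAAA, the reverse complement of TTTATG, and TATAAA from 29 to 24 bases before the start, at a GC content of 43.6%. The Slc12a4 window has 60.8% GC, 13 CG dinucleotides and 3 GC boxes, against a median GC content of 52.4% over all 32851 RefSeq windows. The 3 windows shown do not stand for lower and higher members in general. Among other members lower in KO, the windows of Slc12a7 have 63.6 and 68.8% GC. Those of Slc4a4 have 82 and 48.8%, and those of Slc12a8 52 to 53.6%. Of all 32851 RefSeq windows, 5.49% hold CAAAGNNCA, 10.8% TTTATG, 12.4% TATAAA and 32.7% GGGCGG. Windows were found for 38 of the 50 members, 49 windows in all, and 4.08%, 8.16%, 20.4% and 38.8% of them hold the motifs in the same order. These are matches of letters, not measured sites.

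Among sodium-proton exchangers, the apical forms Slc9a2 and Slc9a3 were near 0 in KO 3. Slc9a2 (NHE2; chromosome 1, 40680574 to 40769273) was at 244, 324 and 266 CPM in WT and at 22.7, 125 and 0.389 CPM in KO. The 0.389 CPM in KO 3 are 5 reads, against 4097 to 5125 reads in WT libraries. All KO libraries lay below all WT libraries, yet they spanned such a range that the log2 ratio of -2.49 had a standard error of 1.42 (edgeR adjusted p = 0.322). It was -4.65 without KO 2 and -1.90 without KO 3.

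Slc9a3 (NHE3; chromosome 13, 74121457 to 74169442), which carries most neutral sodium uptake in the colon, was at 163, 84.0 and 67.0 CPM in WT and at 47.6, 80.7 and 1.17 CPM in KO. KO 2 lay above WT 3, so the groups overlapped, and KO 3 with 15 reads was the library far from all others. The log2 ratio was -1.28 ± 1.12 (SE; edgeR adjusted p = 0.513) with -2.16 without KO 2 and -0.72 without KO 3. WT 1 was the highest library in Slc9a3 and the lowest WT library in Slc9a2, so the apical forms did not follow each other within WT.

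Slc9a8 (NHE8), an exchanger of apical membranes and the Golgi that intestinal epithelium also uses, was at 44.0, 63.3 and 41.4 CPM in WT and at 32.6, 31.2 and 29.0 CPM in KO. Its groups were separate and its KO libraries close together (log2 ratio -0.68 ± 0.25 SE, unadjusted p = 0.0289, adjusted p = 0.166 by edgeR).

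Organelle exchangers of the Slc9 family had overlapping groups. Slc9a7 of the trans-Golgi and Slc9a9 of endosomes had log2 ratios of 0.71 ± 0.67 and -0.27 ± 0.49 (SE). Slc9a5 was at 1.83 to 3.86 CPM over all libraries.

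Among bicarbonate carriers, Slc4a4, Slc4a7 and Slc4a2 had every KO library below every WT library, and Slc4a8 had a positive log2 ratio with overlapping groups. Slc4a4 (NBCe1; chromosome 5, 88886818 to 89239653) brings sodium and bicarbonate in across the basolateral membrane. It was at 44.7, 193 and 66.3 CPM in WT and at 9.34, 4.69 and 7.77 CPM in KO. The groups were far apart. The lowest library was KO 2, the KO library with the most epithelial transcript. The log2 ratio was -3.80 ± 0.63 (SE; 13.9-fold lower, 95% interval of the ratio 0.0258 to 0.2; edgeR adjusted p = 0.094), with -3.61 without KO 2, -3.88 without KO 3 and -2.97 without WT 2. With no filter on low counts its edgeR adjusted p was 0.0388.

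Slc4a7 (NBCn1; chromosome 14, 14702279 to 14799940), an electroneutral sodium-bicarbonate cotransporter, was at 75.7, 128 and 104 CPM in WT and at 38.1, 29.5 and 48.1 CPM in KO. Its groups were separate, and KO 2 was again lowest and KO 3 highest in KO (log2 ratio -1.41 ± 0.30 SE, edgeR adjusted p = 0.0953). Slc4a8, a sodium-driven chloride-bicarbonate exchanger best known from neurons, went the other way at 11.5, 4.62 and 13.2 CPM in WT against 29.8, 8.01 and 23.4 CPM in KO. KO 2 lay within the WT range, and the log2 ratio was 1.07 ± 0.58 (SE; edgeR adjusted p = 0.301).

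Of the sodium-independent anion exchangers, Slc4a2 (AE2), the basolateral form of most epithelia, was at 54.7, 116 and 65.9 CPM in WT and at 50.9, 48.2 and 32.2 CPM in KO. All KO libraries were below WT 1, the lowest WT library (log2 ratio -0.85 ± 0.35 SE, edgeR adjusted p = 0.2). Slc4a2 overlaps Fastk on the opposite strand, and without a stated strand setting reads in the overlap cannot be told apart. Slc4a3 (AE3), a form of muscle and nerve, was at 11.5 to 14.9 CPM in WT and at 27.6, 24.3 and 11.8 CPM in KO, with KO 3 inside the WT range. Slc4a1, the anion exchanger of red cells, was at 1.13, 0.127 and 0.708 CPM in WT and at 0.346, 1.49 and 3.19 CPM in KO. The summed level of 6 erythroid markers was 51.2 to 162 CPM in WT and 163, 588 and 2651 CPM in KO 1 to KO 3, with 5 of 5 tested markers higher and none at 0. Its part in the Slc4a1 values was not tested. Slc4a11 had a log2 ratio of -1.21 ± 0.60 (SE) with overlapping groups.

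**Figure D2:**
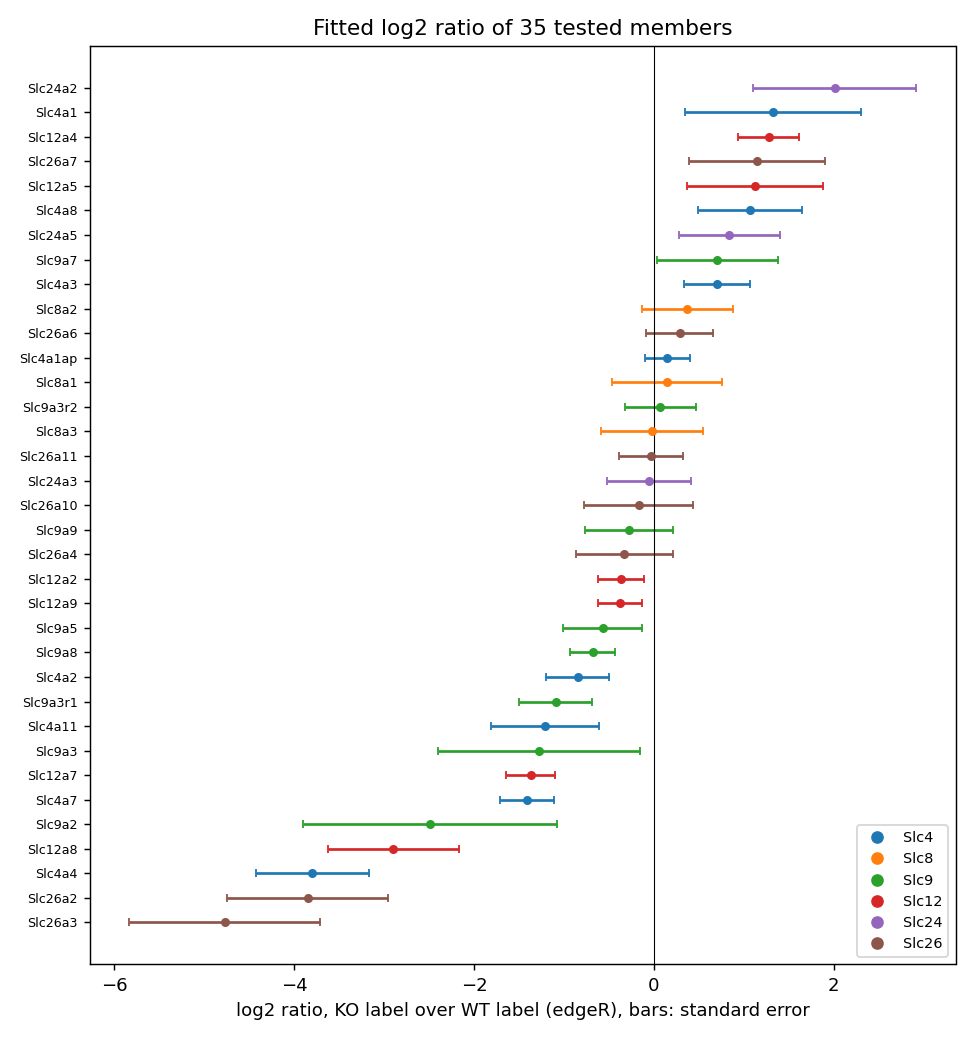
Fitted log2 ratio (KO label over WT label, edgeR) of 35 tested members with its standard error, coloured by family. Slc26a3, Slc26a2, Slc4a4, Slc12a8 and Slc9a2 lie below -2, with the longest bar at Slc9a2, and Slc24a2, at 2.01, is the highest estimate.

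Within the cation-chloride family, potassium-chloride cotransporters differed in opposite directions. Slc12a7 (KCC4; chromosome 13, 73733094 to 73816754), an epithelial form, was at 88.3, 138 and 111 CPM in WT and at 50.8, 37.0 and 42.7 CPM in KO. Slc12a4 (KCC1; chromosome 8, 105943590 to 105966097), a form of nearly all cells that regulates volume, was at 29.0, 15.7 and 23.9 CPM in WT and at 63.2, 37.3 and 65.9 CPM in KO. Neither pair of groups overlapped. The log2 ratios were -1.37 ± 0.27 (SE; edgeR adjusted p = 0.094) for Slc12a7 and 1.28 ± 0.34 (SE; adjusted p = 0.108) for Slc12a4. Per length, Slc12a4 stood at 0.972, 0.336 and 0.637 times Slc12a7 in WT and at 3.68, 2.98 and 4.57 times in KO, so the leading form of the pair was a different one in each group.

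Slc12a2 (NKCC1), the basolateral sodium-potassium-chloride cotransporter that loads chloride for secretion, had overlapping groups. Its values were 109, 135 and 133 CPM in WT, and in KO they ran from 77.4 CPM in KO 2 to 115 CPM in KO 3. KO 3, where Slc9a2, Slc9a3 and the pan-epithelial markers were low, held the highest KO value. Which cells held these Slc12a2 reads was not tested. KO stood at 0.776 of the WT level (95% bounds 0.509 and 1.18, edgeR adjusted p = 0.417), and a level below 0.509 of WT lay outside these bounds.

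Slc12a8, a member of uncertain ion transport that has been described as a carrier of nicotinamide mononucleotide in the gut, was at 19.8, 45.5 and 26.01 CPM in WT and at 1.78, 8.69 and 1.71 CPM in KO. Its gene model lies on chromosome 16, 33517328 to 33664135. The groups were separate, with KO 2 nearest to WT (log2 ratio -2.90 ± 0.73 SE, edgeR adjusted p = 0.104; -4.16 without KO 2). Slc12a9 was at 22.1 to 26.2 CPM in WT and at 22.6, 16.9 and 17.7 CPM in KO, with a log2 ratio of -0.38 ± 0.25 (SE).

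Sodium-calcium exchangers, which remove calcium from excitable and other cells, showed no common direction. Of the 8 genes in the Slc8 and Slc24 families 6 were tested, and 0 had an unadjusted p under 0.05. Slc24a3, a potassium-dependent exchanger found in smooth muscle, was at 29.1, 26.8 and 40.2 CPM in WT and at 42.4, 38.1 and 11.9 CPM in KO. The low value was KO 3 alone, and the log2 ratio of -0.056 ± 0.469 (SE) was 0.31 without KO 3. The summed level of 6 smooth muscle markers was also lowest in KO 3, at 1523 CPM against 3056 to 5248 CPM in the other libraries, and its part in that value was not tested. Slc24a5, an exchanger of pigment cells, was the second tested member with every KO library above WT. It was at 0.692, 0.801 and 1.48 CPM in KO against 0.472 to 0.594 CPM in WT, or 8 to 10 reads per WT library (log2 ratio 0.84 ± 0.56 SE). Slc24a5 overlaps Myef2 on the opposite strand over 4050 bases, with 74 reads in all against 1738 for Myef2. Without a stated strand setting, reads in that overlap cannot be told apart. Slc8a1 spread from 4.27 CPM in KO 3 to 24.01 CPM in KO 1, around a WT range of 8.67 to 13.7 CPM.

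Several members are best known from neurons, and none of those named here had an unadjusted p under 0.05. Slc24a2 was at 0.357, 0.38 and 0.649 CPM in WT and at 2.57, 0.229 and 2.88 CPM in KO, so KO 1 and KO 3 were high and KO 2 was the lowest library of all. Its log2 ratio was 2.01 ± 0.91 (SE; edgeR adjusted p = 0.228). Slc12a5 (KCC2) had a log2 ratio of 1.13 ± 0.75 (SE), with KO 2 at 0.515 CPM below all WT libraries. Slc8a2 had 0.37 ± 0.51 (SE), Slc8a3 had -0.022 ± 0.565 (SE) and Slc9a5 had -0.57 ± 0.44 (SE). The 9 enteric neuron and glia markers were all positive, with none at 0, and their summed level was 111 to 202 CPM in WT and 595, 292 and 1025 CPM in KO 1 to KO 3. The part of neuron content in these members was not tested.

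The scaffold gene Slc9a3r1, whose product NHERF1 holds apical exchangers and Cftr at the brush border, was the member with the highest per-length level. It was at 409, 431 and 358 CPM in WT and at 112, 282 and 168 CPM in KO. The groups did not overlap, with KO 2 nearest to WT (log2 ratio -1.09 ± 0.40 SE, unadjusted p = 0.0296, adjusted p = 0.167 by edgeR). In KO 3 it was thus at 168 CPM beside 1.17 CPM of Slc9a3, whose product NHERF1 binds. The pan-epithelial markers summed to only 73.5 CPM in that library, and which cells held the Slc9a3r1 reads was not tested. Slc9a3r2, encoding NHERF2, was at 26.6, 30.1 and 35.9 CPM in WT and at 37.7, 43.8 and 15.6 CPM in KO, with KO 3 the low library. Its log2 ratio was 0.071 ± 0.394 (SE) and lay between -0.26 and 0.38 when single libraries were left out. Slc4a1ap was at 15.4 to 20.7 CPM over all libraries.

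**Figure D3:**
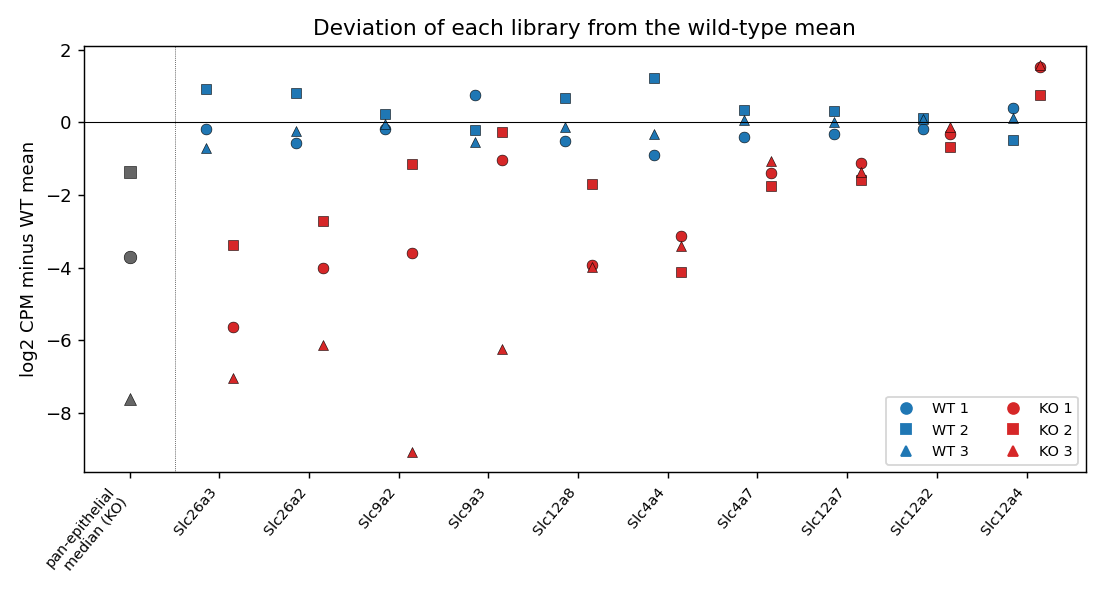
Log2 CPM minus the WT mean in each library for 10 carriers, beside the same quantity for the median of 10 pan-epithelial markers in the KO libraries (grey). In Slc26a3, Slc26a2, Slc9a2 and Slc9a3 KO 2 lies highest and KO 3 lowest, the order of the pan-epithelial median, whereas in Slc4a4, Slc4a7 and Slc12a7 KO 2 is the lowest KO library.

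The lower members are described here in sets by the order of their KO libraries, chosen after their values were seen. Relative to the WT mean, the pan-epithelial median stood at -3.71, -1.37 and -7.62 on the log2 scale in KO 1 to KO 3. Slc26a3 stood at -5.62, -3.39 and -7.04 and Slc26a2 at -4.02, -2.72 and -6.13. For Slc9a2 the values were -3.60, -1.14 and -9.09, and for Slc9a3 they were -1.03, -0.27 and -6.24. These carriers thus shared the order of the epithelial markers, with KO 2 highest and KO 3 lowest. That order was common over the whole table. Of all genes with every KO library below every WT library, 67.1% had KO 2 as the highest KO library. KO 3 was the lowest in 71% of them. Among the 11 members with that pattern, KO 2 was highest in 5 and KO 3 lowest in 7.

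Slc4a4 at -3.14, -4.11 and -3.40, Slc4a7 at -1.40, -1.76 and -1.06 and Slc12a7 at -1.12, -1.58 and -1.37 had KO 2 as their lowest library. Their WT libraries ran from -0.89 to 1.22, from -0.41 to 0.35 and from -0.33 to 0.32 in that order. The KO libraries of each gene lay no further apart than its WT libraries, so their order is not set apart from the spread between replicates. Among the 11 members with separate groups KO 2 was the lowest KO library in 3, whereas it was lowest in 9.05% of all genes with that pattern. WT 2 was the highest WT library in 10 of the 11, and in 64.9% of all such genes. KO 2 also held 1046 CPM of 6 pancreatic acinar markers, against 0.886 to 2.08 CPM in WT, 66.0 in KO 1 and 3.50 in KO 3. Slc4a4, which pancreas also expresses, was lowest in that library, and the part of acinar content in its values was not tested.

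Set against the pan-epithelial median of the same library, 7 of the 38 tested members had overlapping groups, namely Slc26a3, Slc26a2, Slc9a2, Slc4a4, Slc4a7, Slc12a7 and Slc12a8. The other 31 were higher in all 3 KO libraries, as were 85.7% of all genes tested. The median they are set against was itself lower in each KO library. On that scale Slc26a3 was at -0.73, 0.37 and -1.02 in WT and at -2.37, -2.48 and 0.12 in KO, and Slc26a2 at -1.19, 0.18 and -0.62 in WT and at -0.86, -1.90 and 0.94 in KO. Slc9a2 was at -1.93, -1.52 and -1.56 in WT and at -1.56, -1.44 and -3.13 in KO. Slc4a4 was at -4.37, -2.27 and -3.57 in WT and at -2.83, -6.15 and 0.82 in KO. KO 2 lay below all WT libraries in Slc26a3, Slc26a2 and Slc4a4. Slc9a3 was among the 31, at -0.49, -2.08 and -1.80 against -2.51, -3.46 and -3.55 in WT. In bulk tissue, fewer epithelial cells and less transcript per cell cannot be told apart, and the part of epithelial content in these differences was not tested.

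**Figure D4:**
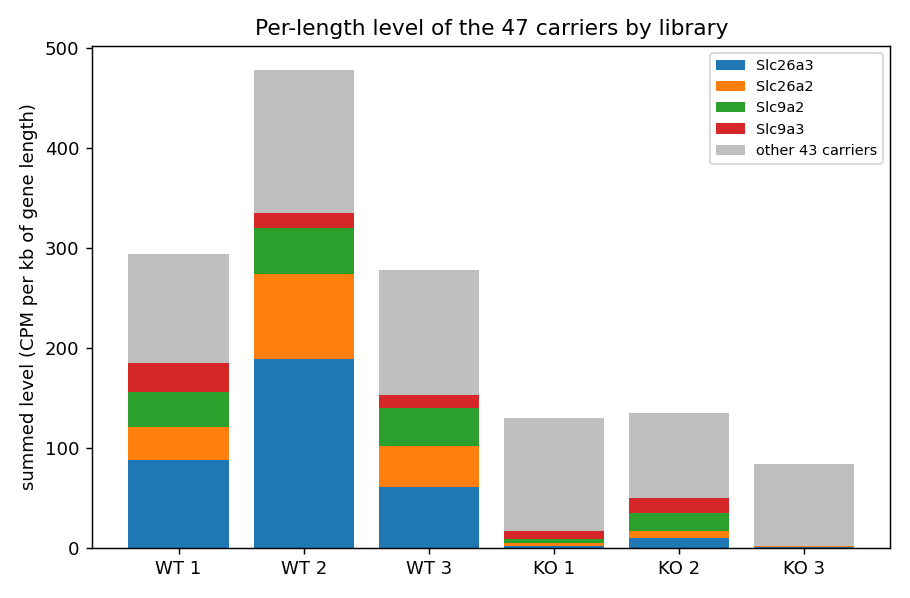
Summed per-length level (CPM per kilobase of gene length) of the 47 carriers in each library, with Slc26a3, Slc26a2, Slc9a2 and Slc9a3 in colour and the other 43 carriers in grey. The coloured part makes up 54.9 to 70.1% of the sum in WT and 13.04, 36.8 and 2.01% in KO 1 to KO 3. The coloured genes were grouped after their values were seen.

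The make-up of the carrier transcripts differed accordingly. Summed over the 47 carriers, the per-length level reached 294, 479 and 278 in the WT replicates, against 130, 135 and 84.2 in the KO replicates. Slc26a3, Slc26a2, Slc9a2 and Slc9a3 together held 63.1, 70.1 and 54.9% of it in WT and 13.04, 36.8 and 2.01% in KO. These genes were grouped after their values were seen, so their lower share in KO describes that choice and is no separate result. Slc12a2, whose WT level was close to that of Slc9a3, was counted with the other 43 carriers. The other 43 carriers summed to 108, 143 and 125 in WT and to 113, 85.1 and 82.5 in KO, so KO 1 lay within the WT range. In WT the per-length order of the carriers was led by Slc26a3 (112 ± 67.2, SD, n = 3), Slc26a2 (53.1 ± 28.0), Slc9a2 (39.8 ± 5.97), Slc12a2 (19.3 ± 2.24) and Slc9a3 (19.01 ± 9.30). Neighbours in that order lay within the larger SD of each pair, except Slc9a2 and Slc12a2. In KO the order was led by Slc12a2 (14.9 ± 2.90, SD, n = 3) and Slc12a4 (12.97 ± 3.69), and Slc26a3 was at 4.11 ± 4.77. Slc12a2 and Slc12a4 held 20.9 and 18.3% of the carrier sum in KO 3.

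Of 55 tested partner genes in 6 lists, 21 were lower in KO at an unadjusted p under 0.05 (38.2%, against 12.3% of all genes) and 4 were higher (7.27%, against 11.8%), and 0 passed edgeR's adjusted threshold. The lists were chosen with earlier results of these data known. The shares here and below therefore describe the chosen genes and are no test of them. In the list of pumps and potassium channels 8 of 12 were lower and 1 was higher at an unadjusted p under 0.05. The potassium channel subunit gene Kcne3 was at 24.8, 119 and 41.9 CPM in WT and at 1.83, 1.66 and 3.58 CPM in KO. Fxyd4, a sodium pump regulator, had a log2 ratio of -4.74. Kcne3, like Slc4a4, had KO 2 as its lowest library. Among chloride channels 4 of 6 were lower, led by the anion channel gene Best2 at -5.86, Clcn2 at -3.27 and Cftr at -5.24. Cftr ranged from 2.32 CPM in WT 1 to 51.3 CPM in WT 2 and was at 0.889, 0.972 and 0 CPM in KO, where 0 reads in KO 3 allow up to 0.233 CPM (3 reads, counting error only).

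Of 10 carbonic anhydrases 3 were lower at an unadjusted p under 0.05, namely Car2, Car1 and Car4 with log2 ratios of -4.71, -3.40 and -2.84. Among 14 tested regulators of the exchangers 6 were lower and 2 higher. Pdzd3, a scaffold of the NHERF family, had a log2 ratio of -5.65. Ahcyl2, related to the regulator IRBIT that binds Slc4a4, was at -2.50. Chp2, an obligate partner of sodium-proton exchangers in intestine, was at -2.77. The WNK and SPAK kinase list, which sets the activity of the Slc12 carriers, had 0 of 10 lower and 1 higher, Klhl3 at 1.26, while Cab39 at -0.66 and Stk39 at -0.60 did not reach that level (unadjusted p = 0.0732 and 0.146 by edgeR). The 3 epithelial sodium channel genes had negative log2 ratios of -2.43 for Scnn1a, -1.10 for Scnn1b and -0.59 for Scnn1g, with 0 at an unadjusted p under 0.05. All these counts come from the fit over all genes, in which 12.3% were lower and 11.8% higher at that level.

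The other 12 members had too few reads to be tested, with at most 40 reads in any library. Slc26a5, the motor protein prestin of the inner ear, had 0 reads in all 6 libraries, which allows up to 0.148 to 0.233 CPM per library (3 reads). Slc12a1, the kidney form of the sodium-potassium-chloride cotransporter, had 0 reads in each WT library and 1, 5 and 8 reads in KO 1 to KO 3. Slc12a3, Slc24a1, Slc24a4, Slc26a1, Slc26a8, Slc26a9, Slc4a5, Slc4a9 and Slc4a10 reached 2 to 28 reads. Slc9a4 (NHE4), a basolateral exchanger best known from stomach and kidney, had 40 reads in KO 2 and 2 to 7 reads in every other library.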

How the data were processed

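The submitters deposited 1 table of raw read counts, whole numbers with a row for each gene and a column for each library, made by the authors after removal of adaptors, poly-N reads and reads of low quality (per the labels' protocols). Their processing notes list HISAT2 (2.0.5), StringTie (1.3.3b), featureCounts (1.5.0-p3), DESeq2, GRCm38 and mm10 and assign no roles. For annotation release, strand setting and multiply mapped reads the choice is not given in the sources used. Gene lengths are the other deposited column used. Depth was 13326970 to 18321389 counts per library.

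The main test was run in edgeR 4.0.16 under R 4.3.3: filterByExpr (minimum count 10, total 15), TMM, robust quasi-likelihood F test without covariates, Benjamini-Hochberg over 16861 genes. Intervals are 95% and use the fitted standard error. CPM uses TMM-scaled library sizes, and log2 CPM a prior count of 2. Alternatives were RLE and upper-quartile scaling, other filters, libraries left out, a replicate block, protein-coding genes alone, DESeq2 1.42.0 and limma-voom (limma 3.58.1). Members and lists were chosen with earlier results of these data known. Members with a mean of at least 20 CPM, or an unadjusted p under 0.05 and at least 1 CPM, are given by library, and up to 3 genes with the smallest p from each partner list, 3 members and 1 partner gene aside that are not reported here. The test was also run on simulated counts with 200 changed genes. How many of these it recovered is not given here, so its power is left unstated. Chi-square values per degree of freedom of 50.7 to 253 between libraries of a group showed no copied library. Promoter sequences come from a RefSeq table of GRCm38.p6.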

Additional observations from a re-analysis of the deposited data

How the results depend on the processing

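With edgeR 0 genes and 0 members passed the adjusted threshold under RLE or upper-quartile scaling, the filter of 10 reads in every library, protein-coding genes alone, and KO 3 and WT 2 left out together, and also with limma-voom. Genes called over the whole table were 192 with no filter, 3 with the replicate block, 2029 with DESeq2, 1396 with limma-voom with quality weights and 0 to 1813 when 1 library was left out. Members called were 1, 0, 7, 8 and 0 to 8 in the same order, and the calls on leaving out 1 library all came without KO 2. Members lower at an unadjusted p under 0.05 numbered 6 to 10 over all alternatives, with 37 to 49 members tested. Of all genes, 7.39 to 17.4% were lower and 4.88 to 15.9% higher at that level over the same alternatives. Members higher at that level were 2 with upper-quartile scaling, no filter, KO 3 and WT 2 left out together, the replicate block, DESeq2 and quality weights, and 1 to 3 when 1 library was left out. The median log2 ratio of the members was -0.075 with upper-quartile scaling, 0.033 with no filter, -0.357 with the strict filter, 0.039 with DESeq2 and -0.331 to -0.07 without 1 library. The median over all genes was 0.206, 0.112, 0.068, 0.139 and 0.008 to 0.068 in the same order, above that of the members each time. Without the filter, and with DESeq2, 49 members were fitted in place of 38.

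Upper-quartile scaling moved the median of all genes from 0.061 to 0.206 and the genes at an unadjusted p under 0.05 from 12.3% lower and 11.8% higher to 10% lower and 15.9% higher. Slc24a3 changed sign with upper-quartile scaling (0.075), with KO 3 and WT 2 left out together (0.188) and without 1 library (-0.337 to 0.305). Slc9a3r2 did so with the replicate block (-0.033), limma-voom (-0.015), quality weights (-0.001) and without 1 library (-0.26 to 0.383). The cause was not tested. The other 14 members given by library kept their sign under each alternative in which they were fitted. Slc9a2, with 5 reads in KO 3, was not fitted under the filter of 10 reads in every library. Same-numbered libraries did not deviate together (correlations -0.201, 0.087 and -0.075 across genes), whereas WT 3 and KO 1 reached 0.34. With 3 libraries per group, which also differ in epithelial transcript, these correlations cannot tell whether the numbers pair the samples. Depth limits the 12 untested members and those near 1 CPM.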
